A study of Mus musculus with 32 samples.

Results

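The genes described here copy the genome and supply its building blocks. They are 46 genes, listed by name for their roles in DNA replication and nucleotide supply, and all 46 were found among the 41388 genes of the count tables and passed the filter on low counts. They were not chosen by a measured value, although the list was drawn up with earlier results of these data known. They fall into 9 role lists: the replicative helicase (Mcm2 to Mcm7), origin recognition and licensing (Orc1, Orc6, Cdc6, Cdt1), origin firing (Cdc7, Dbf4, Cdc45, Gins1 to Gins4, Mcm10), the sliding clamp and its loader (Pcna, Rfc1 to Rfc5), primase and polymerases, the genes that handle single strands and join Okazaki fragments (Rpa2, Fen1, Lig1), nucleotide supply (Rrm1, Rrm2, Tyms, Tk1), S phase entry (Ccne1, Ccne2, E2f1) and chromatin copying (Chaf1a, Chaf1b, Slbp, Uhrf1).

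RNA was sequenced from whole femur marrow of 32 mice of C57BL/6 background, 2 months old, in 8 groups of 4. The labels number the samples of a group from 1 to 4, read here as 1 mouse each, and p-values measure the spread between these samples. Every mouse carried the floxed diphtheria toxin receptor allele (iDTR, DTR flox). DTRADQ mice carried adiponectin-Cre as well (ADQ Cre+), and the controls (Con) were littermates with no Cre. In each genotype 1 group received no diphtheria toxin (DT), and 3 groups received 100 ng of DT per mouse by intraperitoneal injection each day for 1, 2 or 3 days. The control groups on days 1 to 3 therefore received DT too. The receptor depends on Cre driven by adiponectin, a gene of adipocytes and of the marrow stroma related to them, and blood-forming cells are not its known site of action. Of 9 markers of that stroma, 9 were lower in DTRADQ marrow than in controls on day 2 and 9 on day 3. Their summed level on day 3 ran from 36.8 to 47.2 CPM in DTRADQ and from 587 to 719 CPM in controls. Here CPM are counts relative to the library total, scaled by TMM. The sums were already low on day 1, at 37.8 to 52.7 CPM in DTRADQ against 457 to 808 CPM in controls.

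As background, a cell prepares its origins in G1, when the origin recognition complex with Cdc6 and Cdt1 loads the Mcm2 to Mcm7 ring onto DNA. Cyclin E with its kinase partner and the Dbf4-dependent kinase Cdc7 then fire the origins, Cdc45 and the GINS complex join the ring, and polymerases held by the Pcna clamp copy both strands while ribonucleotide reductase, thymidylate synthase and thymidine kinase keep up the deoxynucleotides. Many of these genes are known targets of E2F factors. Adult marrow is among the most actively dividing tissues, and erythroblasts and granulocyte precursors make up much of its dividing cells. In RNA from whole marrow, fewer cells of a type and less RNA per cell cannot be told apart.

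The libraries held between 8.97 M and 22.93 M counts. Control replicates 3 and 4 without DT stood apart from the other libraries, with up to 50.7% of counts in their 10 highest genes against 19.4% to 30.9% in the 7 other groups, so each value that uses the groups without DT rests partly on them. DTRADQ replicate 1 on day 2 lay above the rest of its group, with 5573 CPM summed over the 46 genes against 3425 to 4359 CPM in the other 3 libraries. The labels give lane 8 for the 8 libraries of day 3 and all lanes for the other 24. Genotypes were compared within a day, where this label is shared. Differences were tested with edgeR's quasi-likelihood test over 14527 genes, with Benjamini-Hochberg adjusted p-values and a threshold of 0.05. The fit estimated the spread of each gene over all 8 groups together. Standard errors and p-values of comparisons within a day therefore also draw on control replicates 3 and 4 without DT.

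Replication genes were lower in DTRADQ marrow than in controls after 2 and 3 days of DT. On day 3, 36 of the 46 were called lower and 0 higher, where 14.1% of all genes tested were called lower. Their median log2 change was -0.64, against -0.02 over all genes, and 46 of 46 estimates lay below 0, as did 51.6% of those of all genes. In 40 of the 46 every DTRADQ library lay below every control library, as was so for 20.4% of all genes. On day 2, 14 were called lower and 0 higher, where the background was 4.17%, with a median of -0.40 against -0.04 over all genes. Estimates lay below 0 for 45 members (54.1% of all genes), and the groups did not overlap, with DTRADQ lower, for 13 (10.7% of all genes). The day 2 count moved more with the setting than the day 3 count. With limma-voom and library weights 36 members were lower on day 2 (12.6% of all genes) and 41 on day 3 (21.9%), with DESeq2 19 (4.96%) and 35 (14%), with scaling by library totals 36 (27.7%) and 39 (21.9%), and without the low-count filter 5 (1.62%) and 30 (6.11%). On day 1 edgeR called 0 of 46, where 3.85% of all genes were called. At an unadjusted p under 0.05, edgeR had 1 member lower and 1 higher on day 1, DESeq2 also called 0, and limma-voom called 1 lower and 1 higher.

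**Figure D1:**
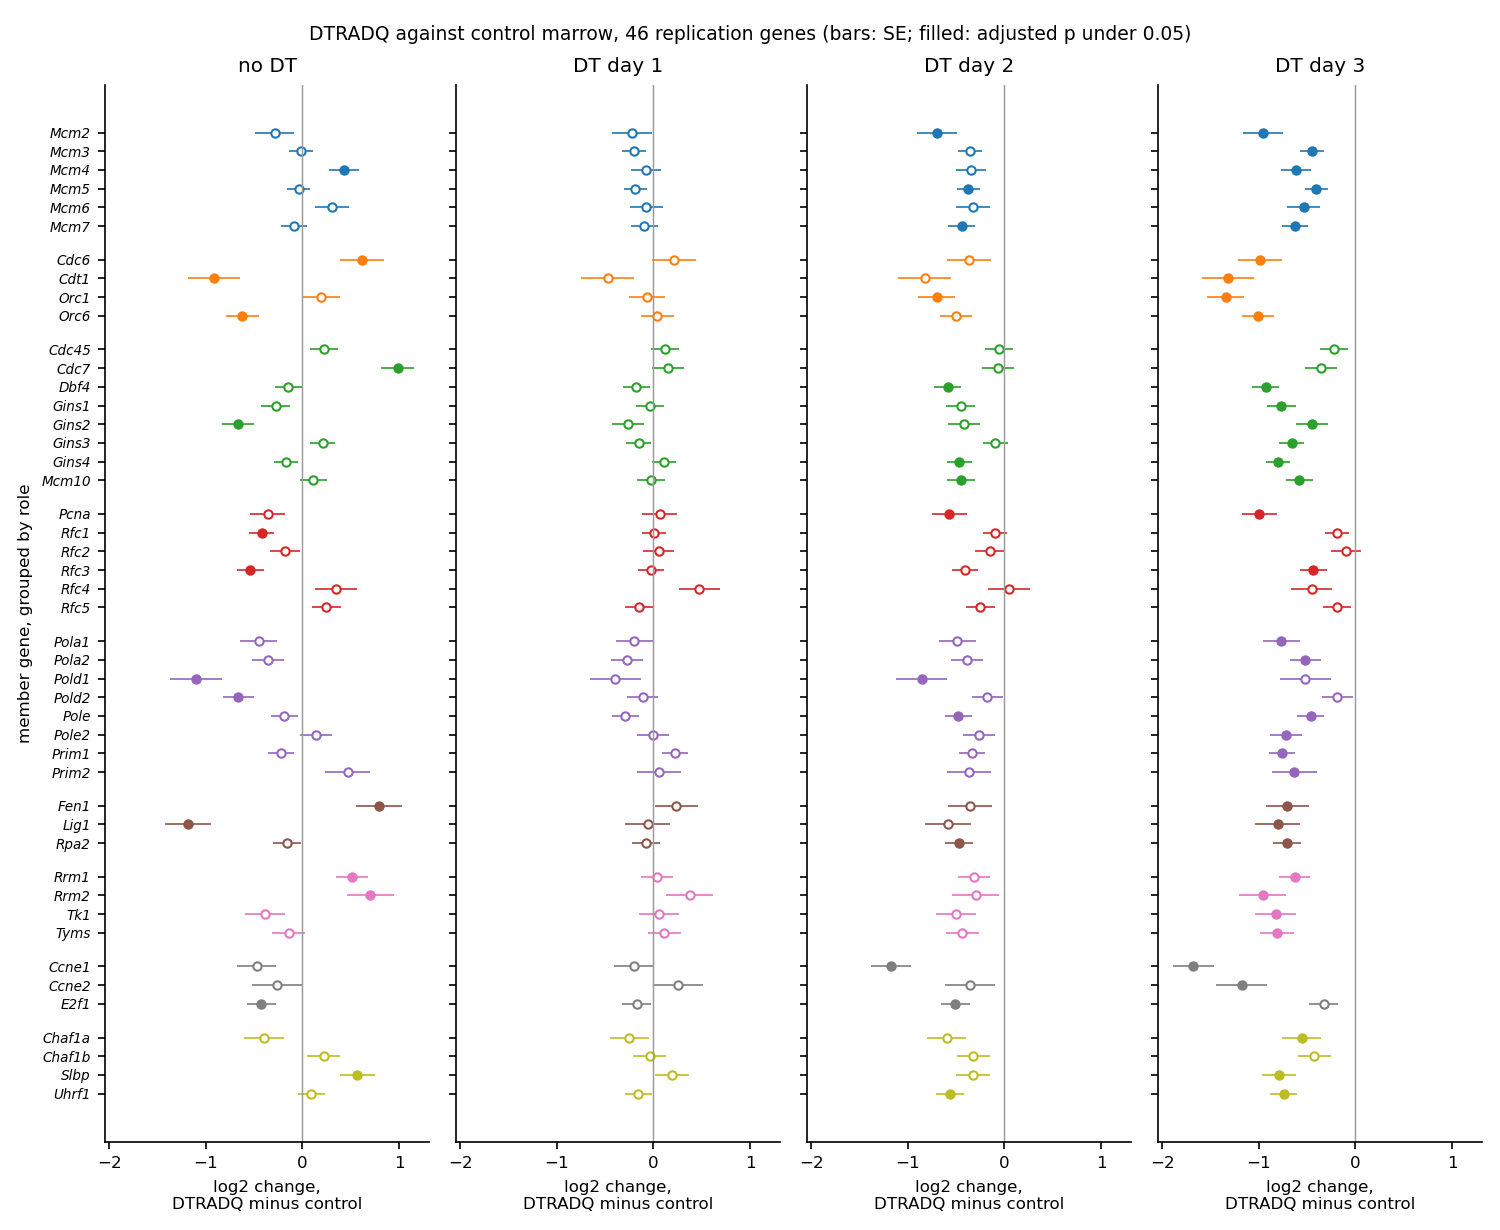
Log2 change of each of the 46 genes, DTRADQ minus control, without DT and after 1, 2 and 3 days of DT (4 mice per group). Points are estimates, bars are SE, filled points have an adjusted p under 0.05, and colours mark the role lists; on day 3 every point lies left of 0 and 36 are filled.

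The 5 largest changes on day 3 belonged to genes that license origins or commit a cell to S phase. Ccne1 fell 3.20-fold, Orc1 2.54-fold, Cdt1 2.50-fold, Ccne2 2.26-fold and Orc6 2.01-fold, and these 5 genes were the members with a log2 change of -1 or below. Pcna (-0.99), Mcm2 (-0.96) and Rrm2 (-0.96), of other lists, lay close to Orc6 (-1.01) and to Cdc6 (-0.99). The median log2 change was -1.18 over the 3 S phase entry genes, of which E2f1 changed by only -0.33, and -1.16 over the 4 licensing genes. It was -0.82 over the 4 nucleotide supply genes and -0.57 over the 6 helicase subunits. The clamp and its loader had the smallest median, -0.31, with 2 of 6 called, Pcna among them. Differences between the role lists were not tested.

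Promoter letters were read for the members, since these genes moved together and are known for E2F sites. RefSeq windows on GRCm38.p6, from 250 bases before to 50 after a start site, matched 38 of the 46 members. The E2F-type letters searched were TTTCCCGC, TTTGGCGC, TTTGCCGC and TTTCGCGC on both strands. They lay in 14 of 38 members (36.84%), against 704 of 27025 genes (2.6%) and 471 of the 10585 genes with a window that passed the count filter (4.45%). CCAAT, the letters of the NF-Y box, lay in 22 of 38 members (57.89%) against 41.06% of all genes. The 200 bases before the start site are printed for 6 members, with matches to either motif in capitals. Mcm6, Mcm5, Gins3, Pola1 and Uhrf1 show E2F-type matches, and Mcm2 is shown as a helicase subunit with none in this stretch. The stretches, 5′ to 3′ on the gene's strand, are chr1:128359706-128359905 (minus strand), chr8:75109309-75109508 (plus), chr8:95633359-95633558 (plus), chrX:93632156-93632355 (minus), chr17:56304113-56304312 (plus) and chr6:88898781-88898980 (minus).
Mcm6: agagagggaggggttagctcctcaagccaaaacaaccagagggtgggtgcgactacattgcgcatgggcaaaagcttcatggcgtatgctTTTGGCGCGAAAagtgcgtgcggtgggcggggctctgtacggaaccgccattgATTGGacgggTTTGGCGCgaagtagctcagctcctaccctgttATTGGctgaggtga
Mcm5: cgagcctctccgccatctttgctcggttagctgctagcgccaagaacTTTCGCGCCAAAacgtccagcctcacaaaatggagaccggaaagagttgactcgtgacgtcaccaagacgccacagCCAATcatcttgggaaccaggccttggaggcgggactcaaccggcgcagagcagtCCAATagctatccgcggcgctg
Gins3: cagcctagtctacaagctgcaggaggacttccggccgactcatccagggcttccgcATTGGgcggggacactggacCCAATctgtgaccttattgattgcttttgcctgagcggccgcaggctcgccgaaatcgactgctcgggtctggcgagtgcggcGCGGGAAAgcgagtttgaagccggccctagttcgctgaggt
Pola1: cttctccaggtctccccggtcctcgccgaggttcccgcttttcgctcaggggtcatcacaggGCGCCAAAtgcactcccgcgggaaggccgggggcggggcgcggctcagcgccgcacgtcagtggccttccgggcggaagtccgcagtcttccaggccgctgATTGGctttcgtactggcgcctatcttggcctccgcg
Uhrf1: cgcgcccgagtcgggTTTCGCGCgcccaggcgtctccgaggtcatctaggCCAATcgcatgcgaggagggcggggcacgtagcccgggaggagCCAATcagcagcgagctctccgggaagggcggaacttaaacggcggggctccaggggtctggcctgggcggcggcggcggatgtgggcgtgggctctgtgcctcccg
Mcm2: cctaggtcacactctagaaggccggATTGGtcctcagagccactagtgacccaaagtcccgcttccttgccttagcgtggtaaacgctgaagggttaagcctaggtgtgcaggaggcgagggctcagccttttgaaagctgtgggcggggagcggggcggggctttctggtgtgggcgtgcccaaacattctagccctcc

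In the Mcm6 stretch 3 E2F-type matches stand with 2 CCAAT boxes, and a pair of the E2F-type matches overlap on opposite strands. Mcm5 has 2 overlapping E2F-type matches and 2 CCAAT boxes. Gins3 and Uhrf1 have 1 E2F-type match and 2 CCAAT boxes each, and Pola1 has 1 of each. The Mcm2 stretch holds 1 CCAAT box. The median log2 change on day 3 was -0.69 over the 14 with a match and -0.67 over the 24 without. Of these, 13 of 14 and 16 of 24 were called lower. A match is a description of letters and was not tested as a binding site.

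**Figure D2:**
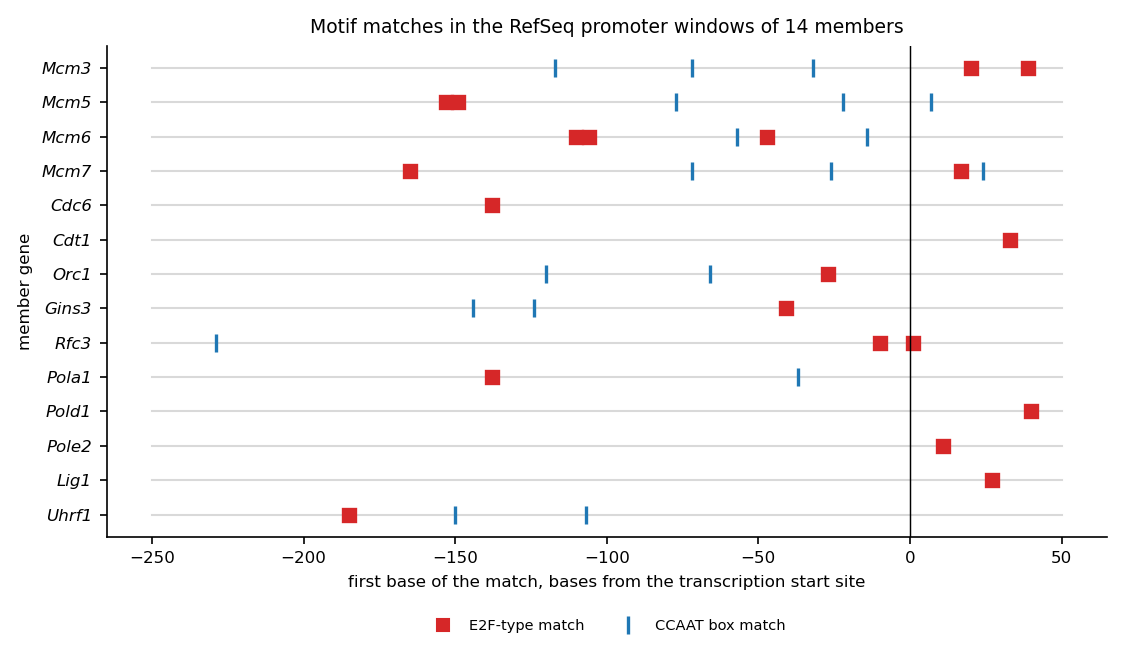
Position of E2F-type matches (squares) and CCAAT boxes (bars) relative to the transcription start site, in bases, in the RefSeq windows of the 14 members with an E2F-type match. Grey lines span the window read, from 250 bases before to 50 after the start site; matches lie on either side of the start, and several genes carry CCAAT boxes upstream of it.

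Log2 changes are given as estimate ± standard error (SE). Both E-type cyclin genes fell on day 3. Ccne1 (ENSMUSG00000002068, chr7:38097984-38107534 on the minus strand), whose protein activates the S phase kinase, read 24.8, 22.7, 25.1 and 31.1 CPM in the 4 control libraries and 7.30, 9.09, 9.06 and 7.03 CPM in the 4 DTRADQ libraries on day 3. Every DTRADQ library lay below every control library, and the log2 change was -1.68 ± 0.21 SE, adjusted p = 5.25e-07. On day 2 the controls read 26.8, 23.6, 28.2 and 32.1 CPM and DTRADQ 16.6, 12, 7.21 and 13.3 CPM, again without overlap, with a log2 change of -1.17 ± 0.21 SE, adjusted p = 0.000373. Ccne2, which encodes the second E-type cyclin, read 231, 185, 196 and 207 CPM in controls and 109, 82, 102 and 69.3 CPM in DTRADQ on day 3 (log2 change -1.18 ± 0.26 SE, adjusted p = 0.00126). The day 3 groups did not overlap, while on day 2 the DTRADQ values of 205, 122, 107 and 144 CPM overlapped the control values of 151, 190.2, 217 and 180.1 CPM. Of the exon bases of Ccne2, 17.42% overlap Ints8 on the opposite strand, and the strand setting of the counting is not given in the sources used here.

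E2f1, which encodes a transcription factor that drives many S phase genes, was called by the edgeR fit on day 2 and not on day 3. It read 15.8, 16.7, 15.9 and 18.5 CPM in controls and 11.8, 12, 12.1 and 11.3 CPM in DTRADQ on day 2, with a log2 change of -0.51 ± 0.15 SE, adjusted p = 0.0331. On day 3 the values were 15.5, 14.3, 17.9 and 15.8 CPM in controls and 11.9, 13, 12.6 and 13.2 CPM in DTRADQ. The groups did not overlap on either day, but the day 3 log2 change of -0.33 ± 0.15 SE missed the threshold (adjusted p = 0.11). It passed under 3 of 8 other settings, with the lowest adjusted p at 0.00649. The day 2 call was lost without the low-count filter (0.0739) and in 7 of 32 fits without 1 library, each of them a library of day 2, at up to 0.112 (without control replicate 4).

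**Figure D3:**
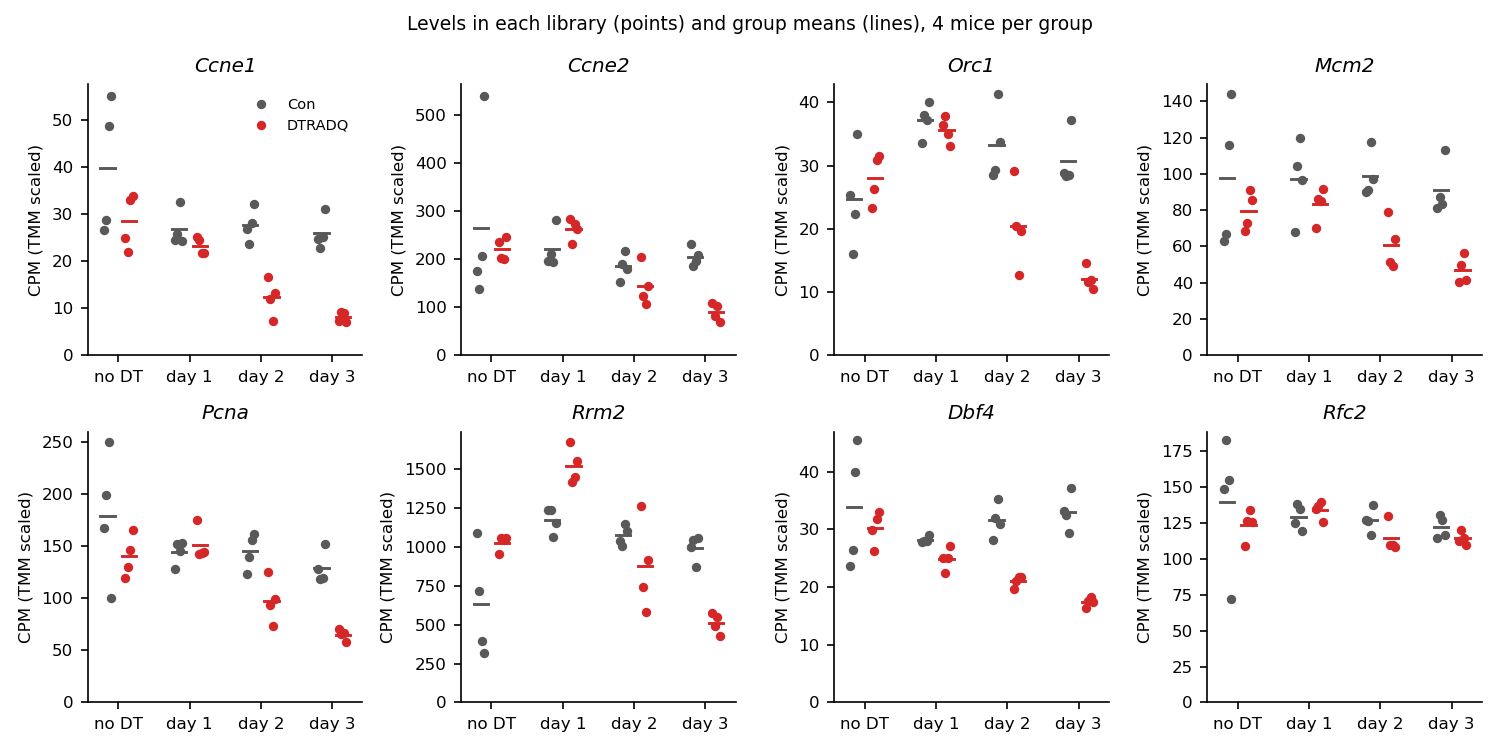
Level of 8 members in each library (points) and group means (lines), in TMM-scaled CPM from 0, for controls (grey) and DTRADQ (red) without DT and after 1, 2 and 3 days of DT. For 7 of the 8 genes the DTRADQ points on day 3 lie below all control points of that day; Rfc2, the exception, overlaps.

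All 4 licensing genes fell on day 3. Orc1, a subunit of the origin recognition complex (ENSMUSG00000028587, chr4:108579423-108614833 on the plus strand), read 28.8, 28.4, 28.5 and 37.2 CPM in controls and 14.6, 11.5, 12 and 10.4 CPM in DTRADQ (log2 change -1.34 ± 0.19 SE, adjusted p = 3.75e-06). Orc6, another subunit and the member of this list with the highest level per length, read 150.4, 138, 133 and 159.5 CPM and 83.7, 67.8, 73.6 and 63.9 CPM (log2 change -1.01 ± 0.17 SE, adjusted p = 3.99e-05). Neither gene's groups overlapped. Cdt1, which brings the helicase ring to origins, changed by -1.32 ± 0.27 SE, adjusted p = 0.000606. Cdc6, its partner at the origin, changed by -0.99 ± 0.23 SE, adjusted p = 0.00188. On day 2 the edgeR fit called Orc1, at -0.70 ± 0.19 SE, adjusted p = 0.0179, and its groups overlapped through DTRADQ replicate 1, which read 29.1 CPM. Leaving out 1 library of day 2 took the adjusted p of Orc1 to 0.0504 (DTRADQ replicate 2), 0.111 (DTRADQ replicate 3) or 0.0948 (control replicate 3), and with only the groups compared it was 0.0534. Cdt1 (log2 change -0.82 ± 0.27 SE, adjusted p = 0.0556) and Orc6 (log2 change -0.50 ± 0.17 SE, adjusted p = 0.0575) missed the threshold on day 2 in the edgeR fit of all 8 groups. Both were called lower in 6 of 8 other settings, among them DESeq2 (0.0378 for Cdt1 and 0.0396 for Orc6), limma-voom (0.000521 and 0.00195) and the replicate block (0.0247 and 0.0441). Orc1 shares 10.81% of its exon bases with Gm12743 on the opposite strand.

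The 6 helicase subunits fell together on day 3, between -0.40 and -0.96 in log2 change. Mcm2 (ENSMUSG00000002870, chr6:88883475-88898780 on the minus strand) moved the most: controls read 81.1, 87.2, 83.2 and 113 CPM and DTRADQ 40.2, 49.9, 56.4 and 41.3 CPM (log2 change -0.96 ± 0.21 SE, adjusted p = 0.000819). Mcm3, the subunit with the highest level per length, read 175, 200.1, 168 and 208 CPM in controls and 139, 144, 138 and 128 CPM in DTRADQ (log2 change -0.45 ± 0.12 SE, adjusted p = 0.00786). For all 6 subunits the DTRADQ libraries lay below the control libraries. Mcm4 changed by -0.61, Mcm5 by -0.40, Mcm6 by -0.53 and Mcm7 by -0.62. Folds within the ring ranged from 1.32 to 1.94, and the differences among subunits were not tested. Single settings ended some calls: without the low-count filter the adjusted p was 0.0536 for Mcm3 and 0.0842 for Mcm5. Mcm5 also reached 0.0502 without DTRADQ replicate 4 of day 3. Mcm6 missed the threshold without DTRADQ replicate 1, 2 or 4 or control replicate 4 of day 3, at up to 0.0928. On day 2, Mcm2 (-0.70), Mcm7 (-0.44) and Mcm5 (-0.37) were called lower.

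Of the 8 origin firing genes 6 fell on day 3. Dbf4, the regulatory subunit that switches on the kinase Cdc7 (ENSMUSG00000002297, chr5:8396973-8422716 on the minus strand), moved the most. It read 33.1, 32.6, 29.4 and 37.2 CPM in controls and 16.4, 17.5, 18.3 and 17.4 CPM in DTRADQ on day 3 (log2 change -0.93 ± 0.14 SE, adjusted p = 8.22e-06). On day 2 it read 28.2, 32, 35.3 and 30.8 CPM in controls and 19.7, 21, 21.8 and 21.7 CPM in DTRADQ (log2 change -0.59 ± 0.14 SE, adjusted p = 0.00749). On both days the groups were well apart, and the 4 DTRADQ libraries of day 2, replicate 1 included, lay close together. Ccne1 and Dbf4 were the members whose day 2 call held in all 32 fits that left out 1 library and in all 8 other settings.

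Cdc7 itself read 67.1, 63.6, 57.2 and 64.6 CPM in controls and 52.5, 48.2, 53.1 and 43.2 CPM in DTRADQ on day 3, without overlap, but its log2 change of -0.36 ± 0.17 SE was not called (adjusted p = 0.122). It was called with the day 3 groups fitted alone (adjusted p = 0.00714), under limma-voom (0.00547) and without control replicate 1 of the groups without DT (0.00791). Cdc45, which bridges the Mcm ring and GINS and has the highest level per length of this list, read 55.7, 65.4, 65.2 and 63.4 CPM and 55.8, 57.8, 52.8 and 47.8 CPM, with overlap (log2 change -0.22 ± 0.14 SE, adjusted p = 0.274). The GINS subunits, which complete the active helicase, changed by -0.77 (Gins1), -0.45 (Gins2), -0.66 (Gins3) and -0.80 (Gins4), all called. Mcm10, which helps start the unwinding, changed by -0.58 ± 0.14 SE, adjusted p = 0.00298. The Gins2 count is uncertain: 67.32% of its exon bases overlap Gse1 on the opposite strand, and its call was lost in 24 of 32 fits without 1 library and in 4 of 8 other settings, at adjusted p up to 0.134.

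Of the sliding clamp and its loader, 2 of 6 genes fell on day 3. Pcna, the ring that holds the polymerases on DNA (ENSMUSG00000027342, chr2:132249162-132253314 on the minus strand), read 128, 118, 119 and 152 CPM in controls and 70.3, 65.4, 66.4 and 58.1 CPM in DTRADQ on day 3 (log2 change -0.99 ± 0.18 SE, adjusted p = 0.000132). All DTRADQ libraries lay far below the controls. The Pcna-ps2 pseudogene shares 99.232% of 781 aligned bases with Pcna, and over all libraries it was given 1204 counts against 63802 for Pcna. The loader genes Rfc1 to Rfc5 place the clamp, and of these Rfc3 was called (log2 change -0.43 ± 0.14 SE, adjusted p = 0.0201). That call was lost without the low-count filter (0.0662), without DTRADQ replicate 2 of day 3 (0.0646) and without control replicate 4 of day 3 (0.0648).

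Rfc4 had the highest level per length of the loader genes and read 178, 174, 171 and 198 CPM in controls and 158, 127, 132 and 111 CPM in DTRADQ. The groups did not overlap, and the log2 change of -0.45 ± 0.22 SE missed the threshold (adjusted p = 0.132); it passed in 3 of 8 other settings and without control replicate 4 of the groups without DT (0.0203). Rfc4 shares 12.65% of its exon bases with Eif4a2 on the opposite strand. Rfc2 read 115, 131, 127 and 116 CPM and 113, 120.2, 114 and 109.6 CPM, with overlap, and at -0.10 ± 0.16 SE had the smallest estimate of the 46 (adjusted p = 0.703). Rfc1 read 123, 123, 110.3 and 128 CPM and 114, 100.5, 108 and 101 CPM (log2 change -0.19 ± 0.13 SE), and Rfc5 read 29.5, 29.1, 32.8 and 32.5 CPM and 29.4, 28.5, 27 and 23.7 CPM (log2 change -0.19 ± 0.15 SE). Both pairs of groups overlapped, and neither gene was called. Rfc2 shares 954 identical bases with transcripts annotated to Lat2, so its count is uncertain.

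Primase and polymerase genes fell in 6 of 8 cases on day 3. Prim1, the catalytic primase subunit with the highest level per length here, read 112, 106, 98.8 and 121 CPM in controls and 72.3, 64.5, 65.8 and 56.9 CPM in DTRADQ (log2 change -0.76 ± 0.13 SE, adjusted p = 8.46e-05). Pola1, the catalytic subunit of polymerase alpha, read 70.8, 64.9, 61.9 and 81.4 CPM and 44, 40.0, 44.1 and 36 CPM (log2 change -0.77 ± 0.19 SE, adjusted p = 0.00361). Neither gene's groups overlapped. Pole2, an accessory subunit of polymerase epsilon, changed by -0.72 ± 0.17 SE, and the catalytic subunit Pole by -0.46 ± 0.14 SE. Prim2, the large primase subunit, changed by -0.63 ± 0.23 SE, and Pola2, the second subunit of polymerase alpha, by -0.52 ± 0.16 SE. Pole was not called without DTRADQ replicate 1 (adjusted p = 0.0871) or control replicate 4 (0.102) of day 3, and Pola2 was not called without the same libraries (0.0908 and 0.111). The Prim2 call was lost in 13 of 32 fits without 1 library and in 2 of 8 other settings, at up to 0.103.

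The polymerase delta genes made up the rest of that list and were not called on day 3 by the edgeR fit. Pold1, the catalytic subunit, read 13.9, 15.9, 17.8 and 25.6 CPM in controls and 10.4, 13, 13.9 and 13.9 CPM in DTRADQ on day 3, with the groups touching (log2 change -0.52 ± 0.26 SE, adjusted p = 0.158). On day 2 it read 22.3, 22.8, 25.4 and 27.8 CPM and 15.8, 13.6, 12.5 and 12.3 CPM, without overlap, and was called lower (log2 change -0.86 ± 0.27 SE, adjusted p = 0.0409). The day 2 call of Pold1 was lost without the low-count filter (0.0779) and in 6 of 32 fits without 1 library, at up to 0.119 (without DTRADQ replicate 3 of day 2). Its day 3 difference was called lower with only the groups compared (0.0367) and with library totals (0.0324). Pold2, its second subunit, read 8.79, 12.2, 14.5 and 12.7 CPM and 9.27, 12, 11 and 10.1 CPM on day 3, with overlap (log2 change -0.19 ± 0.16 SE, adjusted p = 0.432).

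Genes that handle the lagging strand all fell on day 3. Rpa2, a subunit of the complex that coats single strands, read 79.6, 93.2, 91 and 100.4 CPM in controls and 59.4, 53.8, 55 and 54.6 CPM in DTRADQ (log2 change -0.71 ± 0.14 SE, adjusted p = 0.000417). Lig1, the ligase that joins Okazaki fragments, read 93.1, 99.1, 91.3 and 115 CPM and 59.6, 59.4, 56.8 and 52.5 CPM (log2 change -0.80 ± 0.24 SE, adjusted p = 0.0126). In both genes the groups were apart. Fen1, the nuclease that trims the fragments, changed by -0.71 ± 0.22 SE, adjusted p = 0.0196. Its count is uncertain, since 78.82% of its exon bases overlap Gm10143 on the opposite strand, and the call was lost without DTRADQ replicate 1 (0.0617) or 2 (0.0568) of day 3.

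All 4 nucleotide supply genes fell on day 3. Rrm2, the small subunit of ribonucleotide reductase (ENSMUSG00000020649, chr12:24708241-24714146 on the plus strand), read 999, 1041, 868 and 1058 CPM in controls and 575, 492, 547 and 428 CPM in DTRADQ (log2 change -0.96 ± 0.24 SE, adjusted p = 0.00409). On day 2 DTRADQ read 1260.0, 742, 581 and 914 CPM against 1035, 1008, 1148 and 1103 CPM in controls, with replicate 1 above every control and the other 3 below every control. On day 1 it read 1672, 1419, 1446 and 1551 CPM in DTRADQ and 1235, 1240.0, 1066 and 1151 CPM in controls. All 4 DTRADQ libraries of day 1 lay above the controls, but the log2 change of 0.38 ± 0.24 SE was not called (adjusted p = 0.467). Rrm1, the large subunit, changed by -0.63 ± 0.16 SE on day 3. Tyms, which makes thymidylate, changed by -0.81 ± 0.17 SE, and Tk1, the salvage kinase of thymidine, by -0.82 ± 0.21 SE. On day 2 edgeR had none of the 4 past the adjusted threshold, with estimates from -0.30 to -0.50. On that day limma-voom called 3 of them lower, Rrm1 (adjusted p = 0.0134), Tk1 (0.00331) and Tyms (0.00127), and Tyms was also called with only the groups compared (0.0287).

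Genes that copy chromatin with the DNA fell in 3 of 4 cases. Slbp, which binds the stem-loop of replication-dependent histone mRNAs, read 167, 172, 169 and 191 CPM in controls and 100.2, 106, 108 and 91 CPM in DTRADQ on day 3 (log2 change -0.79 ± 0.18 SE, adjusted p = 0.0013). Uhrf1, which recruits the maintenance DNA methyltransferase, changed by -0.74 ± 0.14 SE, adjusted p = 0.000209 on day 3 and by -0.56 ± 0.14 SE, adjusted p = 0.0107 on day 2. Chaf1b, a subunit of the histone chaperone CAF-1, read 33.2, 40.1, 39.8 and 39.3 CPM and 29.6, 27.9, 29.1 and 26.9 CPM. Its groups did not overlap, but it was not called (log2 change -0.43 ± 0.17 SE, adjusted p = 0.0687); it was called in 3 of 8 other settings, without control replicate 1 (0.0254) and without control replicate 4 (0.0333) of the groups without DT. Chaf1a, another subunit of the same chaperone, was called (log2 change -0.56 ± 0.20 SE, adjusted p = 0.0419), and lost the call in 10 of 32 fits without 1 library and in 2 of 8 other settings, at up to 0.14. Of its exon bases 18.74% overlap Ubxn6 on the opposite strand.

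Per length, levels of the members in the marrow spanned a wide range. In mean RPKM over the 32 libraries (CPM per kilobase of exon), Rrm2 was highest at 352, followed by Rfc4 at 135, Rrm1 at 102, Orc6 at 88 and Rfc2 at 82.7. Pole was lowest at 1.79, below Fen1 at 3.00 and Chaf1a at 3.08. Rrm2 and Pole, at the ends of this range, were both called lower on day 3.

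**Figure D4:**
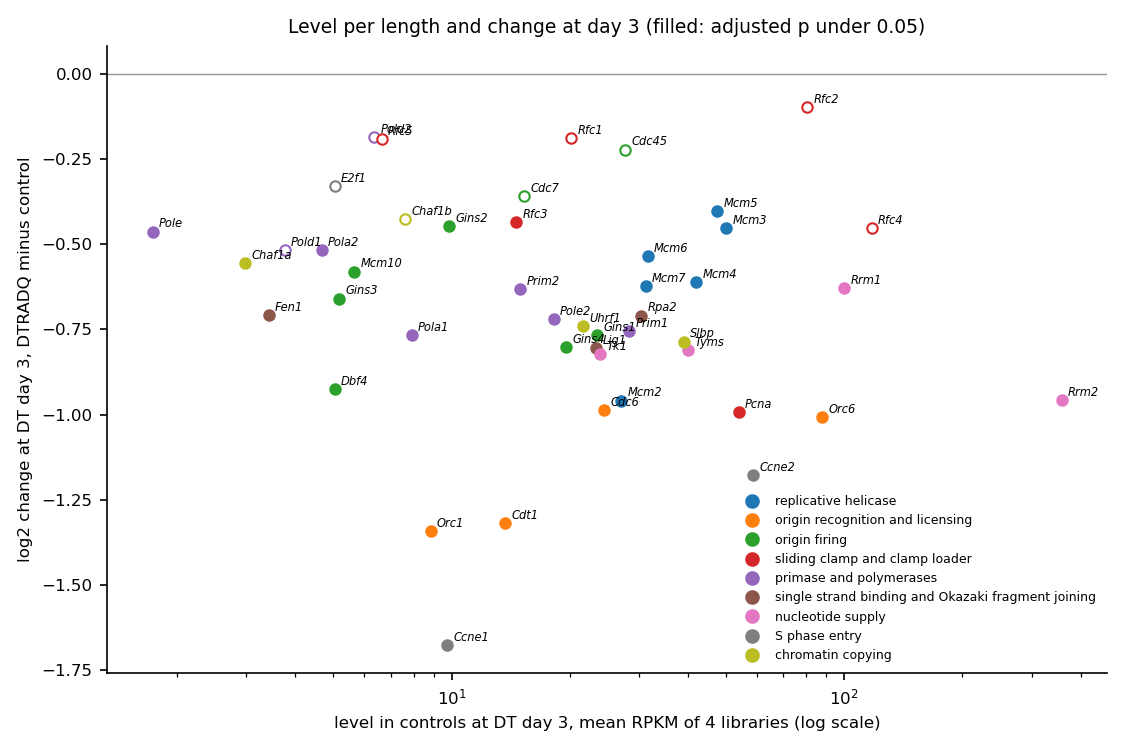
Log2 change on day 3 (DTRADQ minus control) against the mean RPKM of the 4 control libraries of day 3, on a log scale, for the 46 members; filled points have an adjusted p under 0.05 and colours mark the role lists. Rfc2 and Rfc4 sit at high levels with open points, Rrm2 at the highest level with a log2 change of -0.96, and Ccne1 at the lower end with -1.68.

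Pairs of members with linked roles were compared by the log2 ratio of their TMM-scaled CPM within each library, not divided by gene length. The 10 pairs were chosen after their values had been seen. On day 3 the ratio of Rrm2 to Rrm1 averaged 0.978 ± 0.0575 (SD, n = 4) in DTRADQ and 1.31 ± 0.0944 in controls, a difference of -0.33. The Dbf4 to Cdc7 ratio averaged -1.50 ± 0.154 in DTRADQ and -0.94 ± 0.0965 in controls, a difference of -0.56. For Orc1 to Orc6 the difference was -0.33. In these 3 pairs the groups did not overlap, which gives an exact two-sided permutation p of 0.0286, the smallest that 4 against 4 allows, and 0.0952 after Benjamini-Hochberg adjustment over the 10 pairs. No pair passed the threshold after adjustment. With 4 against 4, passing needed complete separation in most of the 10 pairs, so this outcome decides nothing about single pairs. The Ccne1 to Ccne2 ratio differed by -0.48 with overlap (exact permutation p = 0.0571, adjusted 0.143), and the other 6 pairs had adjusted values from 0.159 to 0.343. Permutation tests were run for day 3 alone, and the other days are given as descriptions. Rrm2 to Rrm1 lay apart in the other direction on day 1, by 0.34, and Orc1 to Orc6 did so without DT, by 0.84. The Dbf4 to Cdc7 ratio was lower without overlap on day 1 (-0.34) and day 2 (-0.51) too. Ratios were also lower without overlap for Ccne1 to Ccne2 (-0.84) and Pold1 to Pold2 (-0.67) on day 2, and for Pole to Pole2 (-0.29) on day 1.

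The day 2 and day 3 calls overlapped in 12 genes, which are 85.7% of the 14 called on day 2 and 33.3% of the 36 called on day 3. E2f1 and Pold1 were called on day 2 alone in the edgeR fit. For 40 of 46 members the day 3 estimate lay further below 0 than the day 2 estimate, but the difference between the days was called for 0 of 46 by edgeR, where 1.24% of all genes were called. At an unadjusted p under 0.05 edgeR had 5 members and DESeq2 6, all lower on day 3, DESeq2 called 0, and limma-voom called 1. The day 2 count rested on single libraries. It dropped to 2, 3 or 6 without DTRADQ replicate 2, 3 or 4 of day 2 and to 3 or 4 without control replicate 3 or 4 of day 2. It was 21 without DTRADQ replicate 1 of day 2, 25 without control replicate 4 of the groups without DT, and 28 without control replicates 3 and 4 of those groups (9.51% of all genes lower, against 4.17% in the reported fit). Each of these calls was lower. The day 3 count stayed between 29 and 38 over the 32 fits without 1 library, and 27 of its 36 genes were called in all of them. It was 38 without control replicates 3 and 4 of the groups without DT (18.6% of all genes lower, against 14.1% in the reported fit).

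Without DT, 9 members were called lower and 7 higher in DTRADQ than in controls, where 14.3% of all genes were called lower and 12.6% higher. Lig1 was lowest (log2 change -1.19 ± 0.24 SE, adjusted p = 0.000414), and Cdc7 highest (log2 change 0.99 ± 0.17 SE, adjusted p = 8.54e-05). Cdc7 read 49.9, 22, 19.5 and 24.5 CPM in controls and 59.4, 64.2, 52.1 and 56.5 CPM in DTRADQ, and Lig1 127, 163, 239 and 484 CPM and 86.6, 102, 116 and 139.6 CPM. The controls spread far more widely than DTRADQ in both genes. Without control replicates 3 and 4, 3 members were called lower and 4 higher, without control replicate 3 alone 5 lower and 1 higher, and with the 2 groups fitted alone edgeR called 0, with 6 lower and 1 higher at an unadjusted p under 0.05.

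The change of the genotype difference from no DT to DT was tested directly. By day 3 it was called lower for 21 of 46 members and higher for 0, where 12.0% of all genes were called lower. Rrm2 had the largest estimate (log2 change -1.66 ± 0.34 SE, adjusted p = 0.000791), ahead of Cdc6 (-1.61), Orc1 (-1.54) and Fen1 (-1.50). The count was 27 without control replicates 3 and 4 of the groups without DT (14.7% of all genes lower) and 13 with the 4 groups fitted alone (6.73%). It was 39 when libraries were scaled by their totals, where 35.7% of all genes were called lower. By day 2 it was called lower for 8 members (background 4.84%) and by day 1 lower for Cdc7 and higher for Lig1 (background 12.2% either way). The day 2 count was 13 (12 lower, 1 higher) without control replicate 1 of the groups without DT, and fell to 5, 5, 4 and 5 without control replicate 2 or DTRADQ replicate 4 of those groups, DTRADQ replicate 3 of day 2 or control replicate 3 of day 2. The day 1 count ran up to 12 when 1 library was left out. With only the groups compared edgeR called 0 by day 1 and 0 by day 2, with 1 lower and 3 higher by day 1 and 10 lower by day 2 at an unadjusted p under 0.05. DESeq2 called 1 lower and 5 higher by day 1 and 9 lower by day 2. With library totals 21 were lower by day 1 and 39 by day 2, where 41.5% and 47.1% of all genes were.

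Within DTRADQ mice, 37 of 46 members were lower on day 3 than without DT and 0 higher (16.7% of all genes were lower). On day 2, 6 were lower, Ccne1, E2f1, Dbf4, Gins1, Mcm10 and Orc6 (background 4.76%). On day 1 edgeR called 0 (background 5.41%), with 5 higher and 0 lower at an unadjusted p under 0.05, and DESeq2 called 1 higher. Within controls, 9 members were lower and 16 higher after 1 day of DT (background 33.3% either way), 9 and 10 after 2 days (28.1%) and 13 and 7 after 3 days (30.1%). These shares of controls rest on the same 4 libraries without DT: with only the groups compared in the fit, 1 member was called on each day. Comparisons with the groups without DT share their libraries, so their calls are not independent, and on day 3 they cross the lane label.

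Further replication factors were lower too. Of 31 further replication factors 30 were tested and Pold4 was not. On day 3, 22 were called lower and 0 higher with a median of -0.63, and on day 2, 9 lower and 0 higher with a median of -0.44. Asf1a, a histone chaperone (log2 change -1.31 ± 0.21 SE, adjusted p = 1.93e-05), Atad5, which unloads Pcna (log2 change -1.23 ± 0.16 SE, adjusted p = 8.47e-07), and Wdhd1, a replisome adaptor (log2 change -0.89 ± 0.15 SE, adjusted p = 6.67e-05), had the smallest p-values. Of 25 further nucleotide synthesis genes, which include the purine and pyrimidine routes, 6 were lower and 1 higher on day 3, with 12 of 25 estimates below 0 and a median of 0.01. On day 1 and on day 2, 4 were lower and 0 higher. Among those lower were Dtymk, the next kinase after thymidylate synthase (log2 change -0.62 ± 0.13 SE) and Ppat, the entry enzyme of purine synthesis (log2 change -0.52 ± 0.12 SE). Of 26 genes of the E2F and Rb families, the G1 and S phase kinases and their inhibitors, 13 were lower and 2 higher on day 3, led by the E2F family gene E2f4 (log2 change -1.29 ± 0.18 SE), the Rb relative Rbl1 (log2 change -0.93 ± 0.14 SE) and the kinase inhibitor Cdkn1c (log2 change -2.06 ± 0.32 SE). Cdkn1c was also called lower without DT (log2 change -1.31 ± 0.29 SE, adjusted p = 0.00103), on day 1 (-1.28) and on day 2 (-2.12), and its change from no DT to day 3 was not called (-0.74 ± 0.43 SE, adjusted p = 0.231).

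Mitosis genes, which build the spindle and part the chromosomes, were widely lower on day 3. Of 30, 27 were called lower and 0 higher on day 3 with a median of -0.73, near that of the members, and 0 on day 2 with a median of -0.18. At an unadjusted p under 0.05, edgeR had 5 of the 30 lower on day 2 and DESeq2 called 0, while limma-voom called 10. Whether members and mitosis genes differed on day 2 was not tested. Mki67, the proliferation marker, had a log2 change of -1.30 ± 0.19 SE, adjusted p = 4.19e-06 on day 3 and of -0.35 ± 0.18 SE, adjusted p = 0.236 on day 2. For Cenpf, of the kinetochore, the log2 change was -1.27 ± 0.18 SE on day 3 and -0.34 ± 0.18 SE on day 2.

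Markers of blood cell types moved beside the members. Of 20 erythroblast markers 20 were called lower on day 3 with a median of -1.84, and 1 on day 2 with a median of -0.47 (2 with DESeq2 and 12 with limma-voom). Their summed level ran from 3614 to 5999 CPM in DTRADQ and from 14890 to 19588 CPM in controls on day 3, and from 8128 to 21010 CPM against 14060 to 20663 CPM on day 2. Tfrc, the transferrin receptor, changed by -2.13 ± 0.27 SE, adjusted p = 4.63e-07, and Add2, of the red cell membrane skeleton, by -1.85 ± 0.22 SE. Late red cell genes went the other way: 7 of 9 were higher on day 2 and 4 on day 3, with Alas2, which starts haem synthesis in red cells, at 1.27 ± 0.24 SE. For that list the sum ran from 113610 to 166730 CPM in DTRADQ and from 63613 to 85695 CPM in controls on day 3. The part of these cell types in the members' change was not tested.

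Late neutrophil markers lay higher in DTRADQ on day 2. All 12 estimates lay above 0, from 0.67 to 1.03. Every DTRADQ library lay above every control library for 12 of 12 genes, as was so for 1561 of all 14527 genes tested. The edgeR fit called 4 of them, while DESeq2 and limma-voom called 12 each. Their summed level ran from 124391 to 166012 CPM in DTRADQ and from 72954 to 91999 CPM in controls on day 2. On day 1 the sums overlapped, at 110713 to 149664 CPM in DTRADQ and 62686 to 112246 CPM in controls. On day 3, 4 were called higher, and the sums overlapped, at 114924 to 148597 CPM and 78461 to 132459 CPM. Of 7 promyelocyte markers edgeR called 0 on day 2 and 0 on day 3, with medians of 0.30 and -0.22, and their summed levels on day 3 (2900 to 4196 CPM in DTRADQ, 2854 to 4935 CPM in controls) overlapped. On day 2 those sums lay higher in DTRADQ without overlap, at 4396 to 6075 CPM against 2991 to 4370 CPM. Of 12 B cell precursor markers 3 were lower on day 2, and 4 lower and 1 higher on day 3. The day 3 sums of this list overlapped, at 856 to 1708 CPM in DTRADQ and 610 to 1255 CPM in controls. Vpreb1, of the pre-B cell receptor, changed by -1.80 ± 0.30 SE, adjusted p = 3.93e-05 on day 3. Vpreb1 was also lower without DT (log2 change -1.30 ± 0.29 SE, adjusted p = 0.00111). All 5 eosinophil markers were higher on day 3. Eosinophil sums were already higher without overlap on day 1 (10120 to 15972 CPM in DTRADQ, 4165 to 8570 CPM in controls) and on day 2 (6910 to 9397 and 3706 to 6181 CPM). Without DT they were lower without overlap (5058 to 12048 and 14994 to 20115 CPM). On day 3, 7 of 8 skeletal muscle genes were higher, and their sum ran from 101 to 673 CPM in DTRADQ and from 24.3 to 50.6 CPM in controls. The part of these cell types in the members' change was not tested either.

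**Figure D5:**
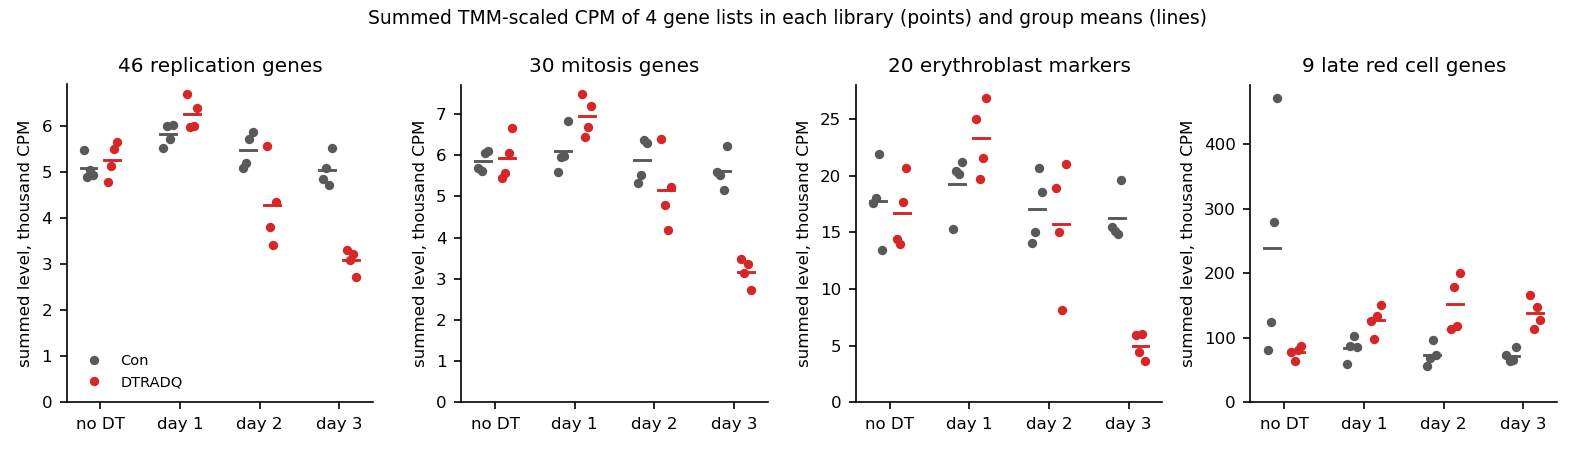
Summed level, in TMM-scaled CPM (axis scaled as labelled, from 0), of the 46 members, 30 mitosis genes, 20 erythroblast markers and 9 late red cell genes in each library (points) with group means (lines), controls in grey and DTRADQ in red. On day 3 the first 3 sums lie lower in all 4 DTRADQ libraries than in any control of that day, and the late red cell sum lies higher; the members' sum ran from 2721 to 3314 CPM in DTRADQ and from 4720 to 5521 CPM in controls.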

How the data were processed

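Whole femur marrow RNA of 32 mice was measured by RNA-seq. Total RNA was extracted with Trizol and RNeasy columns, and libraries were made with Clontech's SMARTer kit, per the labels' protocols. The tools named by the submitters' processing notes are STAR 2.0.4b, featureCounts 1.45 from Subread and bcl2fastq, with build GRCm38. Release of the annotation, strand setting and the counting of multi-mapping reads: not given in the sources used here. Raw counts, CPM and RPKM per gene were deposited by the authors, per the file headers. The deposited CPM and RPKM were used only to check that they follow from the deposited counts and gene lengths (differences up to 4.4e-10 in CPM and, relative to the value, 3.8e-14 in RPKM).

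The members and gene lists were chosen with earlier results of these data known. Counts were analysed with edgeR 4.0.16 in R 4.3.3: filterByExpr with a minimum count of 10 (14527 genes), TMM scaling, a robust quasi-likelihood fit of 8 group means, and 14 contrasts, each with Benjamini-Hochberg adjustment over all genes tested and a threshold of 0.05. SE was taken as |log2 change| over the root of the F statistic. Levels are TMM-scaled CPM or RPKM. Per-library values were given for the member with the highest RPKM and the member with the largest day 3 change in each role list and for members not called on day 3. Of other lists, up to 3 genes with the smallest day 3 p were named. The values of 1 gene that this would name are not reported here. The fit was tested on simulated data with known changes. Libraries of a group were separate samples (the closest pair differed by 8.88 chi-square units per gene). Totals of 8.97 M to 22.93 M set the counting precision of each value. Alternatives were RLE scaling, library totals, no filter, a replicate block, leaving out control replicates 3 and 4 without DT, fitting only the groups compared, limma 3.58.1 voom with library weights, DESeq2 1.42.0 and leaving out each library. Promoter windows are RefSeq's on GRCm38.p6.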

Additional observations from a re-analysis of the deposited data

Results flagged for a closer look

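Dixon's criterion was applied to 104 groups of 4 libraries. These were the day 2 and day 3 groups for the named members and every group for the sum over the 46 members. In 3 of them a library lay far from the others, where chance alone marks about 1 in 20 groups. Named members were not examined in the groups without DT or of day 1. Chaf1b read 33.2 CPM in control replicate 1 of day 3, below the other 3 controls, which lay from 39.3 to 40.1 CPM. Orc1 read 37.2 CPM in control replicate 4 of day 3, above the other 3, which lay from 28.4 to 28.8 CPM. Rfc2 read 130.0 CPM in DTRADQ replicate 1 of day 2, above the other 3 of its group. That library also had the highest sum over the 46 members in its group, at 5573 CPM, but this sum did not meet the criterion.

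The genotype difference after DT differed from that without DT for 2 members on day 1, for 8 on day 2 and for 21 on day 3, by the interaction term of the edgeR model. These are 4.35%, 17.4% and 45.7% of the members, where 12.2%, 11.0% and 20.9% of all genes were called either way. The day 1 share thus lay below that of all genes. Control replicates 3 and 4 without DT enter each of these 3 comparisons.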

How the results depend on the processing

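Of the day 3 calls, 30 of 36 were called in all 8 other settings and 26 in those and in all fits without 1 library. Scaling by library totals shifted the median of all genes to -0.18 on day 3, -0.36 on day 2, -0.25 on day 1 and 0.41 without DT; relative to it the members' median was -0.64 on day 3 (-0.63 in the reported fit) and -0.36 on day 2 (-0.36). With totals, 85.4% of all day 3 calls were lower (61.5% in the reported fit), 95.6% on day 2 (48.8%), 97.5% on day 1 (78.5%) and 11.7% without DT (53.2%). Counts of members called changed with the setting, and the cause was not tested. Brackets give the share of all genes called either way under the same setting. With library totals they were 18 without DT (1 lower, 17 higher) [40.1%], 5 on day 1 [13.8%] and 36 on day 2 [29%]; 21, 39 and 39 for the change of the genotype difference by days 1, 2 and 3 [43%, 48.2%, 38%]; 2 and 21 within DTRADQ on days 1 and 2 [12.7%, 17.1%]; and 20 within controls on day 3 (1 lower, 19 higher) [46.2%]. Without the filter they were 5 on day 2 [3.24%], 3 within DTRADQ on day 2 [3.4%], and 16 and 13 within controls on days 1 and 3 (5 lower, 8 higher on day 3) [14.4%, 13.5%]. Without control replicates 3 and 4 of the groups without DT they were 7 without DT [13%], 1 on day 1 [9.11%] and 28 on day 2 [19.5%]; 5 and 14 for the change by days 1 and 2 [12.3%, 12.7%]; 1 for day 3 against day 2 [3.11%]; 7 and 19 within DTRADQ on days 1 and 2 [12.7%, 20.1%]; and 14 within controls on day 1 [21.5%]. With only the groups compared they were 0 without DT (6 lower and 1 higher at an unadjusted p under 0.05) [0%], 1 on day 1 [7.19%] and 23 on day 2 [17.9%]; 0, 0 and 13 for the change by days 1, 2 and 3 [3.06%, 2.26%, 11.5%]; 9 and 13 within DTRADQ on days 1 and 2 [12.8%, 15.6%]; and 1 within controls on each day [5.86%, 3.78%, 5.72%]. With limma-voom they were 2 on day 1 [14.8%] and 36 on day 2 [24.8%]; 14 and 19 for the change by days 1 and 2 [23.9%, 23.2%]; 1 for day 3 against day 2 [4.87%]; and 6 and 25 within DTRADQ on days 1 and 2 [14.9%, 20.5%]. With DESeq2 they were 6 for the change by day 1 [15%], 1 and 10 within DTRADQ on days 1 and 2 [7.39%, 11.9%], and 21 within controls on day 2 (11 lower, 10 higher) [30%].

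Leaving out 1 library gave 6 to 22 members without DT, 0 to 1 on day 1, 2 to 25 on day 2 and 29 to 38 on day 3. For the change of the genotype difference it gave 1 to 12, 4 to 13 and 17 to 27 by days 1, 2 and 3, and 0 to 0 for day 3 against day 2. Within DTRADQ it gave 0 to 2, 1 to 15 and 31 to 38, and within controls 16 to 29, 10 to 26 and 11 to 24. The share of all genes called is not given for these fits, and it too moves with the libraries fitted. On day 2 it was 8.56% in the reported fit and 19.5% without control replicates 3 and 4 of the groups without DT. These ranges are therefore not specific to the members. Within controls on day 2 lower calls outnumbered higher ones without control replicate 1 (26 called) or 4 (20) of the groups without DT. Single estimates near 0 changed sign on day 2: leaving out 1 library gave -0.126 to 0.015 for Cdc45 and -0.047 to 0.154 for Rfc4, and library totals gave -0.268 for Rfc4. Rfc4 was below 0 without DTRADQ replicate 1 or control replicate 1 of day 2, and Cdc45 above 0 without DTRADQ replicate 2. Whether equal replicate numbers pair the libraries was not settled. Deviations of same-numbered libraries of the 2 genotypes on 1 day correlated with a median r of 0.085, over 0.1 in 6 of 16 pairs. For differently numbered libraries of 1 day the median was -0.022, over 0.1 in 7 of 48 pairs. Across days the medians were 0.056 for equal and -0.011 for different numbers. With the number as a replicate block, 17 members were called on day 2 and 35 on day 3. Whether depth limited the calls of members with low levels, or the number of calls on a day, was not tested. Day 2 libraries held 11.54 to 14.4 M counts in DTRADQ and 12.8 to 14.46 M in controls. Day 3 libraries held 15.74 to 19.85 M in DTRADQ and 21.05 to 22.93 M in controls, without overlap.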

Other observations

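The same promoter letters were counted in the gene lists beside the members. E2F-type matches lay in 9 of 26 further replication factors (34.62%) and in 7 of 19 genes of the E2F and Rb families, S phase kinases and inhibitors (36.84%), but in 1 of 26 mitosis genes (3.85%) and 1 of 22 further nucleotide synthesis genes (4.55%). CCAAT boxes lay in 20 of 26 mitosis genes (76.92%) and in 15 of 26 further replication factors (57.69%). These shares describe letters in windows of equal length.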
